A study of Homo sapiens with 8 samples.

Results

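The antioxidant genes described here are 10 genes of the NRF2 pathway and of glutathione and thioredoxin metabolism: NFE2L2, KEAP1, HMOX1, NQO1, GCLM, GCLC, TXNRD1, SRXN1, GPX1 and OSGIN1. They were chosen by name, and every probe set that the array annotation ties to 1 of these symbols alone was used, which gave 19 probe sets of 41091 and 10 genes of 19775. RNA was measured on 8 one-colour Affymetrix arrays, 1 per sample, with 2 arrays in each of 4 groups. The groups were MDA-MB-231 with an XBP1 hairpin (shXBP1), MDA-MB-231 with a control hairpin (shCtrl), T47D with shXBP1 and T47D with shCtrl. MDA-MB-231 is a triple-negative breast cancer line with mesenchymal features and T47D is a luminal, oestrogen receptor-positive one. All 4 groups carried a lentiviral hairpin, were kept in puromycin at 2 µg/ml after infection, and were held for 24 h in medium without glucose at 0.1% O2, so every value below comes from stressed cells. The replicates are labelled biological, with nothing on whether each came from its own infection. The p-values therefore reflect the variation among these arrays alone, and part of it may be technical. Only 1 XBP1 hairpin label was used, and whole cultures were measured, so fewer cells with a transcript and less of it per cell cannot be told apart.

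NRF2, the product of NFE2L2, is a transcription factor that is bound by KEAP1, an adaptor of the CUL3 ubiquitin ligase, and degraded while the cell is not under oxidative stress. When cysteines of KEAP1 are modified, NRF2 accumulates, pairs with a small MAF protein and binds antioxidant response elements, and the repressor BACH1 competes for the same elements. Its targets make glutathione (GCLC, GCLM), reduce quinones (NQO1), break down heme (HMOX1) and keep thioredoxin and peroxiredoxins reduced (TXNRD1, SRXN1). XBP1, the factor that was knocked down, acts downstream of the ER stress sensor IRE1, which splices its mRNA, and drives genes of protein folding and secretion.

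The targeted gene and the lines were checked first. XBP1 read 7.13 and 6.69 in MDA-MB-231 shXBP1 cells against 10.83 and 10.69 in shCtrl cells, and 7.52 and 7.16 in T47D shXBP1 cells against 12.41 and 12.56 in shCtrl cells, all on the log2 scale. It fell by 3.85 in MDA-MB-231 (14.4-fold, limma adjusted p = 6.93e-05) and by 5.15 in T47D (35.4-fold, adjusted p = 8.68e-06). Of 7 luminal markers, 3 lay above the median of all probe sets (5.96) on every MDA-MB-231 array and 7 on every T47D array. Of 6 mesenchymal markers, 5 did so on every MDA-MB-231 array and 2 on every T47D array, and CDH2 read 5.24 to 5.77 on all 8 arrays. With shXBP1, KRT8, KRT18 and KRT19 fell in T47D by 1.33, 0.80 and 0.45 (limma adjusted p = 7.43e-05, 0.0003 and 0.0110). ESR1 rose there by 0.39 (adjusted p = 0.0298), and CD44 and ZEB1 fell by 0.565 and 0.42 (adjusted p = 0.00407 and 0.0216). In MDA-MB-231 AXL fell by 2.195 (adjusted p = 0.00429) and KRT8 rose by 0.49 (adjusted p = 0.0117). The mean level of 4 leukocyte markers was 5.41 to 5.58 on the MDA-MB-231 arrays and 5.23 to 5.44 on the T47D arrays, and 1 of the 4 lay over the median on every MDA-MB-231 array and 2 on every T47D array. PTPRC read 3.75 to 4.22, CD14 4.92 to 6.38, CD3E 5.82 to 6.31 and ITGAM 6.02 to 6.33 over the 8 arrays. The mean of 6 fibroblast markers was 6.05 to 6.16 on MDA-MB-231 and 5.90 to 6.06 on T47D arrays, and 3 of the 6 lay over the median on every array of each line. COL1A1 read 8.97 to 10.21 and rose by 0.70 in T47D (limma adjusted p = 0.0223), PDGFRB read 6.07 to 6.69, DCN 6.19 to 6.54 and LUM 3.52 to 3.74. The part of these markers in the results was not tested. The ACTB difference between 3' and 5' control probe sets, a measure of RNA quality, was 0.893 and 1.104 on MDA-MB-231 shXBP1 arrays against 1.302 and 1.209 on shCtrl arrays, and 0.973 and 1.265 on T47D shXBP1 arrays against 1.034 and 0.971 on shCtrl arrays. Between the GAPDH control probe sets the difference was 0.304 and 0.32 on MDA-MB-231 shXBP1 arrays against 0.27 and 0.334 on shCtrl arrays. On T47D arrays it was 0.283 and 0.157 with shXBP1 against 0.33 and 0.237 with shCtrl. The part of RNA quality in the results was not tested.

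XBP1 knockdown did not move the antioxidant genes as a block in either line. In MDA-MB-231, HMOX1 rose, NQO1, GCLC, TXNRD1 and NFE2L2 fell, and 5 of the 10 genes did not pass the test. In T47D, NFE2L2 and OSGIN1 rose, NQO1 and GCLM fell, and 6 did not pass. NQO1 was the 1 gene that fell in both lines, and NFE2L2 passed in opposite directions. The test was limma's, with an adjusted p under 0.05 over 19775 genes. The 5 calls in MDA-MB-231 stand beside a background of 17.2% of all genes called (10.6% higher and 6.68% lower), and the 4 calls in T47D beside 29.1% (15.5% higher and 13.5% lower). The median log2 fold change of the 10 genes was -0.12 in MDA-MB-231, where that of all genes was 0.03, and 0.17 in T47D, where that of all genes was -0.02.

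**Figure D1:**
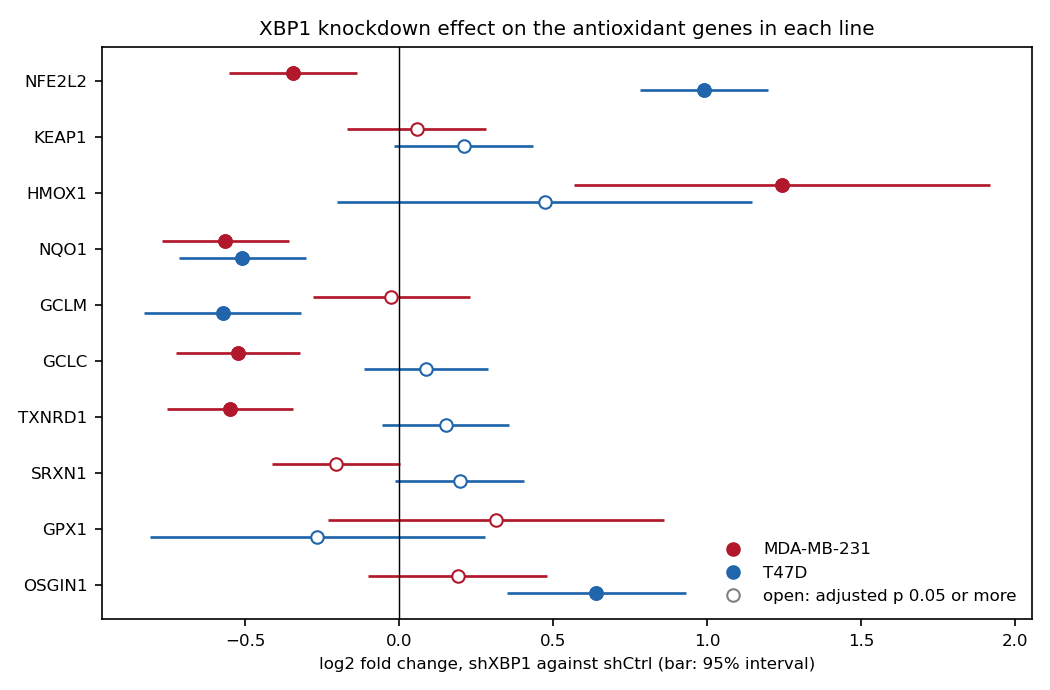
Log2 fold change of shXBP1 against shCtrl for each antioxidant gene, at its brightest probe set, in MDA-MB-231 (red) and T47D (blue). Points are limma estimates from 2 arrays per group, bars are 95% intervals, and open points did not pass the adjusted p threshold of 0.05. NFE2L2 lies at -0.35 in MDA-MB-231 and 0.99 in T47D, while NQO1 lies at -0.56 and -0.51.

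NFE2L2 mRNA, which encodes NRF2, rose in T47D and was lower in MDA-MB-231. In MDA-MB-231 it read 11.12 and 11.14 with shXBP1 against 11.49 and 11.46 with shCtrl. The T47D arrays read 12.24 and 12.27 with shXBP1 against 11.18 and 11.34 with shCtrl. The shXBP1 arrays thus lay below both controls in the first line and above both in the second. The change was -0.35 in MDA-MB-231 (SE 0.09, limma adjusted p = 0.0351) and 0.99 in T47D (1.99-fold, SE 0.09, adjusted p = 0.000176). The effect in MDA-MB-231 less that in T47D was -1.34 (SE 0.13, adjusted p = 0.000437). Of the 4 groups, T47D shXBP1 was the highest, followed by MDA-MB-231 shCtrl, T47D shCtrl and MDA-MB-231 shXBP1, and the arrays of neighbours in this order did not overlap. The fall in MDA-MB-231 missed the threshold in 9 of 16 alternative settings, among them leaving out any 1 of the 4 MDA-MB-231 arrays or either T47D shXBP1 array, with adjusted p up to 0.129 and values of -0.36 to -0.33.

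A dimmer NFE2L2 probe set moved the same way. It read 6.10 and 6.02 in MDA-MB-231 shXBP1 cells against 6.86 and 6.61 in shCtrl cells, and 6.83 and 6.68 in T47D shXBP1 cells against 6.22 and 6.43 in shCtrl cells. Its changes were -0.67 in MDA-MB-231 (adjusted p = 0.00984 over 41091 probe sets, limma) and 0.43 in T47D (adjusted p = 0.0434). The third NFE2L2 probe set read 4.89 to 5.47 on all 8 arrays, under the median of all probe sets, and changed by -0.02 and 0.14. Tested probe set by probe set, the share called was 15.8% in MDA-MB-231, 24.3% in T47D, 21.1% for the difference between the lines and 44.4% between control cells. The brightest NFE2L2 probe set then had an adjusted p of 0.0503 in MDA-MB-231.

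KEAP1, the adaptor that delivers NRF2 for degradation, did not pass in either line. It read 9.90 and 9.86 in MDA-MB-231 shXBP1 cells against 9.77 and 9.88 in shCtrl cells, a change of 0.06 (95% interval -0.17 to 0.28, limma adjusted p = 0.761). In T47D it read 9.46 and 9.43 with shXBP1 against 9.15 and 9.33 with shCtrl, a change of 0.21 (-0.02 to 0.44, adjusted p = 0.161). The groups overlapped in MDA-MB-231 and did not in T47D.

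**Figure D2:**
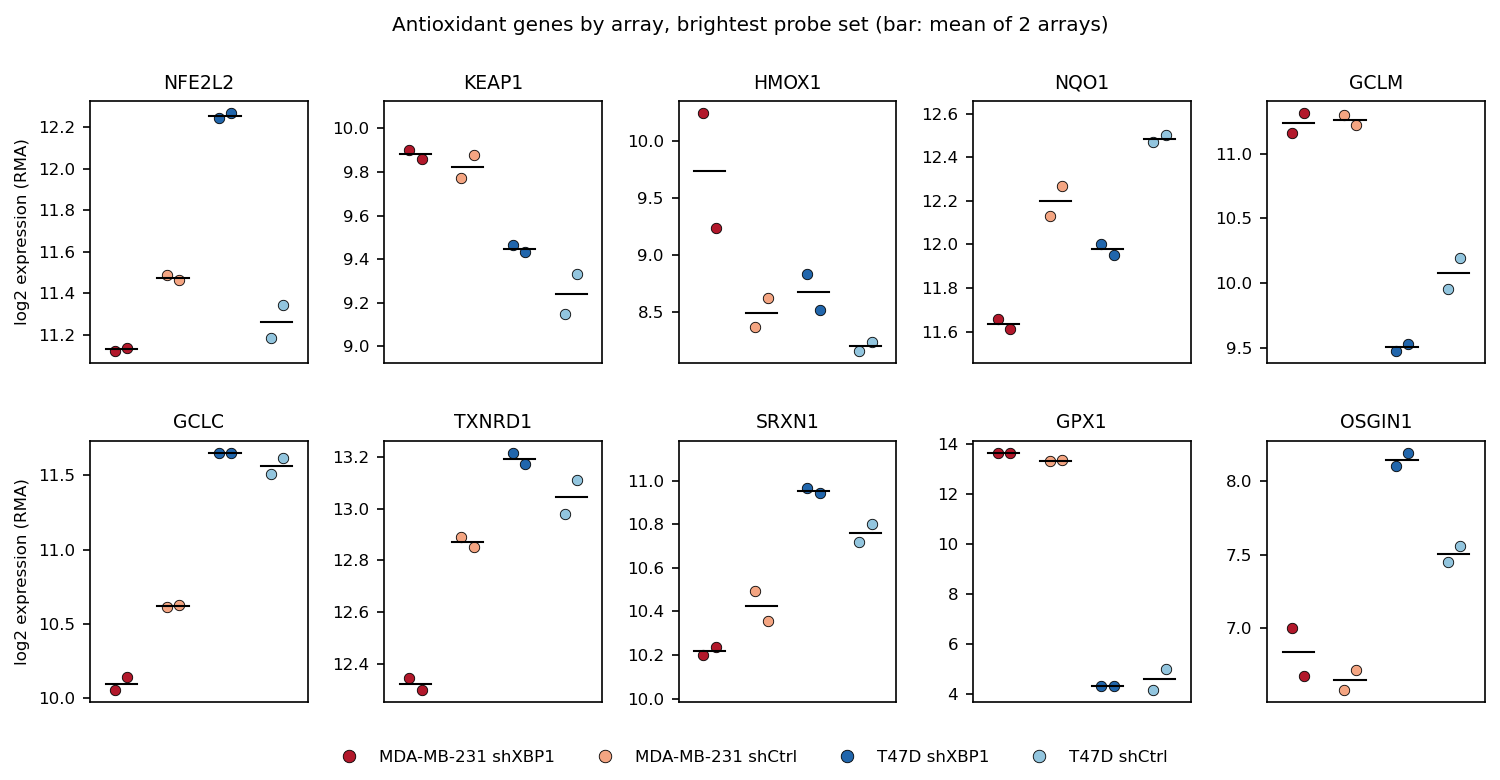
Deposited log2 expression of each antioxidant gene on each of the 8 arrays, at its brightest probe set, with a bar at the mean of the 2 arrays of a group and a separate vertical axis for each gene. The NFE2L2 points of T47D shXBP1 (12.24 and 12.27) lie above the other groups, the 2 HMOX1 points of MDA-MB-231 shXBP1 lie at 10.24 and 9.23, and GPX1 separates the lines.

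HMOX1 encodes heme oxygenase 1, the inducible enzyme that opens the heme ring to biliverdin, iron and carbon monoxide. It rose in MDA-MB-231, with 10.24 and 9.23 on the shXBP1 arrays against 8.37 and 8.62 on the shCtrl arrays. The T47D arrays read 8.83 and 8.52 with shXBP1 against 8.16 and 8.24 with shCtrl. Both shXBP1 arrays were above both controls in each line, but the MDA-MB-231 shXBP1 group had an SD of 0.71, against 0.06 to 0.22 in the other groups. The change was 1.24 in MDA-MB-231 (2.37-fold, SE 0.29, 95% interval 0.57 to 1.92, limma adjusted p = 0.0243) and 0.47 in T47D (SE 0.29, -0.20 to 1.15, adjusted p = 0.291). The difference between the lines was 0.77 (SE 0.41, adjusted p = 0.227) and did not pass, although leaving out MDA-MB-231 shXBP1 replicate 2 made it 1.27, with an adjusted p of 0.0101. The T47D shXBP1 and MDA-MB-231 shCtrl arrays overlapped, so the order of those 2 groups was not resolved.

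The HMOX1 rise in MDA-MB-231 depended on which arrays entered the fit. It was 0.74 without shXBP1 replicate 1 (limma adjusted p = 0.0463) and 1.75 without shXBP1 replicate 2 (0.00327). Without MDA-MB-231 shCtrl replicate 1 or 2 the adjusted p was 0.110 and 0.0540 (limma). In T47D the value of 0.47 passed when only the 4 T47D arrays were fitted (adjusted p = 0.0412) or when either MDA-MB-231 shXBP1 array was left out (0.0489 each). Among pathway genes, AKR1B10, an aldo-keto reductase, read 5.26 on MDA-MB-231 shXBP1 replicate 1 and 4.32 on replicate 2. CHAC1, which breaks down glutathione, read 7.37 and 6.56 on them. SOD2 and ABCC4 went the other way, at 8.343 and 8.111 on replicate 1 and 8.715 and 8.579 on replicate 2. These genes were picked out after their values were seen, and AKR1B10 lay under the median of all probe sets on every array.

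HMOX2, the constitutive heme oxygenase, rose in both lines. It read 10.44 and 10.25 in MDA-MB-231 shXBP1 cells against 9.32 and 9.47 in shCtrl cells, a change of 0.95 (SE 0.10, limma adjusted p = 0.00106). T47D gave 9.59 and 9.60 with shXBP1 against 8.99 and 9.10 with shCtrl, a change of 0.55 (SE 0.10, adjusted p = 0.00554). Its second probe set changed by 0.66 in MDA-MB-231 (adjusted p = 0.0124 over probe sets) and by 0.31 in T47D (adjusted p = 0.138).

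NQO1, the quinone reductase often used as a readout of NRF2, fell in both lines and at each of its 3 probe sets. The brightest read 11.66 and 11.61 in MDA-MB-231 shXBP1 cells against 12.13 and 12.27 in shCtrl cells, a change of -0.56 (SE 0.09, limma adjusted p = 0.00467). T47D gave 12.003 and 11.952 with shXBP1 against 12.47 and 12.50 with shCtrl, a change of -0.51 (SE 0.09, adjusted p = 0.00366). No shXBP1 array overlapped its controls. The difference between the lines was -0.05 (95% interval -0.35 to 0.24, adjusted p = 0.803). In order, T47D shCtrl was the highest, then MDA-MB-231 shCtrl, T47D shXBP1 and MDA-MB-231 shXBP1, with no overlap between neighbours.

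The second brightest NQO1 probe set fell by more than the other 2. It read 10.76 and 10.81 in MDA-MB-231 shXBP1 cells against 12.094 and 11.998 in shCtrl cells, and 10.92 and 10.95 in T47D shXBP1 cells against 12.36 and 12.45 in shCtrl cells. Its changes were -1.26 in MDA-MB-231 (SE 0.10, limma adjusted p = 0.000225 over probe sets) and -1.47 in T47D (SE 0.10, adjusted p = 5.38e-05). The third changed by -0.66 in MDA-MB-231 (adjusted p = 0.00762) and by -0.60 in T47D (adjusted p = 0.00717). The size of the NQO1 fall therefore depended on the probe set, at 1.48-fold to 2.40-fold in MDA-MB-231 and 1.42-fold to 2.78-fold in T47D. The positions of these probe sets on the transcript were not analysed here.

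**Figure D3:**
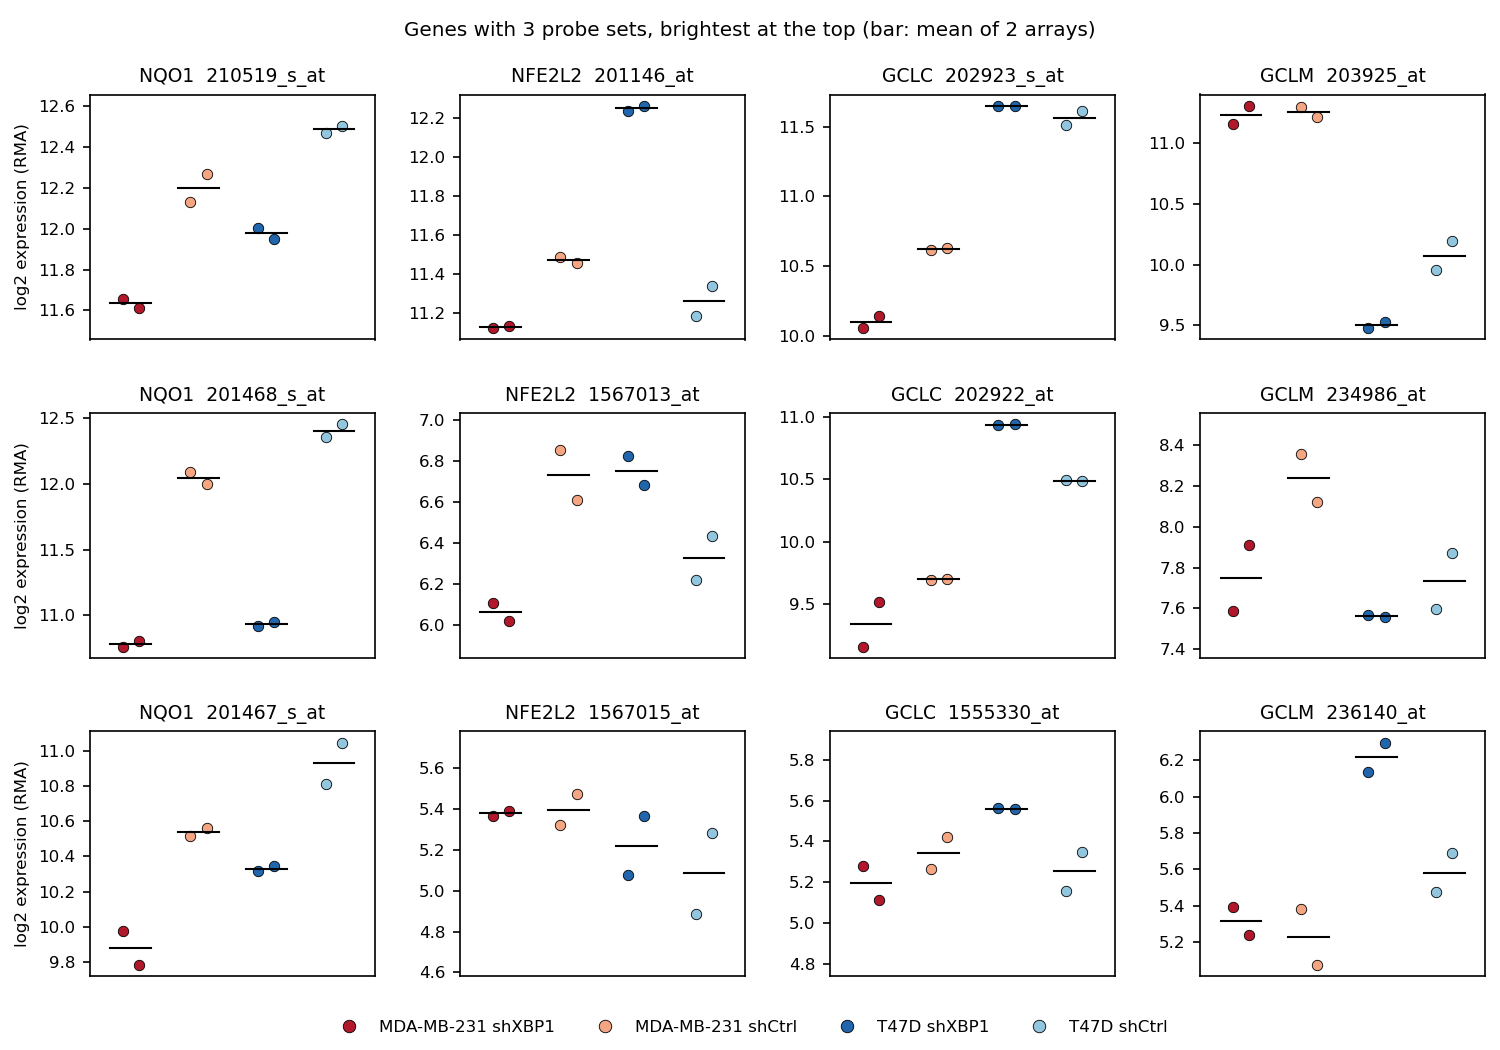
Log2 expression on each array for the 4 genes with 3 probe sets, brightest probe set in the top row, with bars at group means and a separate axis per panel. All 3 NQO1 probe sets are lower with shXBP1 in both lines, whereas those of GCLM disagree in T47D, at -0.57 for the brightest and 0.63 for the dimmest.

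GCLC and GCLM encode the catalytic and the modifier subunit of glutamate-cysteine ligase, the first and rate-limiting enzyme of glutathione synthesis, and each was lowered in a different line. GCLC fell in MDA-MB-231, with 10.05 and 10.14 with shXBP1 against 10.61 and 10.63 with shCtrl, a change of -0.52 (SE 0.09, limma adjusted p = 0.00569). In T47D it read 11.65 and 11.65 with shXBP1 against 11.51 and 11.62 with shCtrl, a change of 0.09 (95% interval -0.11 to 0.29, adjusted p = 0.537). Between the lines the effects differed by -0.61 (SE 0.12, adjusted p = 0.00924). The second GCLC probe set gave -0.36 in MDA-MB-231 (adjusted p = 0.101 over probe sets) and 0.45 in T47D (adjusted p = 0.0350), and a difference of -0.81 (adjusted p = 0.0148). The third lay under the median of all probe sets, with changes of -0.15 and 0.31 that did not pass.

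GCLM fell in T47D, where it read 9.48 and 9.53 with shXBP1 against 9.96 and 10.19 with shCtrl, a change of -0.57 (SE 0.11, limma adjusted p = 0.00570). In MDA-MB-231 it read 11.16 and 11.31 with shXBP1 against 11.30 and 11.22 with shCtrl, a change of -0.03 (95% interval -0.28 to 0.23, adjusted p = 0.909). The groups overlapped in MDA-MB-231. Between the lines the effects differed by 0.55 (SE 0.15, adjusted p = 0.0372). The dimmer GCLM probe sets did not follow: they gave -0.17 and 0.63 in T47D (adjusted p = 0.5001 and 0.0123 over probe sets) and -0.49 and 0.09 in MDA-MB-231 (0.0653 and 0.743). With the mean over the 3 probe sets the T47D change was -0.04 (adjusted p = 0.861) and the difference between the lines was -0.10 (adjusted p = 0.699).

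TXNRD1, the cytosolic thioredoxin reductase, a selenoprotein that recycles thioredoxin with NADPH, fell in MDA-MB-231. It read 12.34 and 12.30 with shXBP1 against 12.89 and 12.85 with shCtrl, a change of -0.55 (SE 0.09, limma adjusted p = 0.00498). In T47D it read 13.22 and 13.17 with shXBP1 against 12.98 and 13.11 with shCtrl, a change of 0.15 (95% interval -0.05 to 0.35, adjusted p = 0.268). The shXBP1 arrays were below both controls in MDA-MB-231 and above both in T47D, and the difference between the lines was -0.70 (SE 0.12, adjusted p = 0.00552). A second TXNRD1 probe set read 3.18 to 3.40 on all arrays, near the lowest value of the table (2.75), and with the mean over both the change in MDA-MB-231 was -0.26 (adjusted p = 0.0645).

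The promoters of GCLM and TXNRD1 are shown because each gene passed in 1 line and both hold the core of an antioxidant response element. That element is the site that NRF2 and a small MAF protein bind. GCLM passed in T47D, where its probe sets disagreed, and TXNRD1 in MDA-MB-231. TGACNNNGC was searched on both strands in the 250 bases before each annotated start, in RefSeq sequences of GRCh38.p14. It was found in 10.91% of all 35116 promoters. Of the 10 genes, 9 were in the table with 12 promoters, and 4 promoters of 3 genes held a match. The stretches run 5′ to 3′ along the gene, with the match in capitals. A GC at the start of the capitals marks a match on the opposite strand. The GCLM stretch is chr1:93909431-93909490, on the minus strand. Those of TXNRD1 are chr12:104215654-104215714 and chr12:104286904-104286964, on the plus strand.
GCLM: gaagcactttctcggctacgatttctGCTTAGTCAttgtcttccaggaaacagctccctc
TXNRD1, start 1: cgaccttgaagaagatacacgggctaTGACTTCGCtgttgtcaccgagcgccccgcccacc
TXNRD1, start 2: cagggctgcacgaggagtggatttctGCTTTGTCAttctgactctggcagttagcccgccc

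The GCLM match begins 34 bases before the start, and those of TXNRD1 begin 99 and 102 bases before their starts. KEAP1 held 2 matches before 1 of its 2 starts. In the 6 other genes in the table, NFE2L2, NQO1, GCLC, SRXN1, GPX1 and OSGIN1, these letters were not in the window. A core often linked to XBP1 binding, TGACGTG, was in 1.68% of all promoters and in 0 of the 12 promoters of these genes. The 2 motifs overlap where a TGAC is followed by GTGGC. A match is a description of the sequence, and the arrays do not read binding.

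SRXN1, sulfiredoxin, which repairs over-oxidised peroxiredoxins, did not pass in either line. It read 10.20 and 10.24 in MDA-MB-231 shXBP1 cells against 10.50 and 10.36 in shCtrl cells, a change of -0.21 (95% interval -0.41 to 0.00, limma adjusted p = 0.172). In T47D it read 10.97 and 10.95 with shXBP1 against 10.72 and 10.80 with shCtrl, a change of 0.20 (-0.01 to 0.40, adjusted p = 0.156). Both shXBP1 arrays lay below their controls in MDA-MB-231 and above them in T47D. The difference between the lines was -0.40 (SE 0.13, adjusted p = 0.0545) and passed in 5 of 15 alternatives.

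OSGIN1, an oxidative stress-induced growth inhibitor, rose in T47D. T47D gave 8.10 and 8.19 with shXBP1 against 7.45 and 7.56 with shCtrl, a change of 0.64 (1.56-fold, SE 0.13, limma adjusted p = 0.00637). In MDA-MB-231 it read 7.001 and 6.677 with shXBP1 against 6.58 and 6.72 with shCtrl, and these groups overlapped, with a change of 0.19 (95% interval -0.10 to 0.48, adjusted p = 0.368). The difference between the lines was -0.45 (adjusted p = 0.110). Leaving out MDA-MB-231 shXBP1 replicate 1 made it -0.61, with a limma adjusted p of 0.0336.

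GPX1, the cytosolic selenium-dependent glutathione peroxidase, separated the lines and did not pass for the knockdown in either. It read 13.64 and 13.63 in MDA-MB-231 shXBP1 cells against 13.30 and 13.34 in shCtrl cells, a change of 0.31 (95% interval -0.23 to 0.86, limma adjusted p = 0.431). In T47D it read 4.30 and 4.31 with shXBP1 against 4.142 and 5.001 with shCtrl, a change of -0.27 (-0.81 to 0.28, adjusted p = 0.475). All 4 T47D arrays lay under the median of all probe sets, and the 2 T47D shCtrl arrays differed by more than the other pairs. The shared spread of the fit includes that pair, so the 2 tight pairs of MDA-MB-231 carry an SE of 0.23. Without T47D shCtrl replicate 1 the T47D change was -0.69 (adjusted p = 0.00543), and without replicate 2 it was 0.16 (adjusted p = 0.350). The difference between the lines was 0.58 (adjusted p = 0.260), and 1.01 without T47D shCtrl replicate 1 (adjusted p = 0.00471).

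In all, 4 of the 10 genes had knockdown effects that differed between the lines, against 24.8% of all genes (13.0% higher and 11.8% lower). For NFE2L2, GCLC and TXNRD1 the effect in MDA-MB-231 was the lower, and for GCLM it was the higher. The first 3 of these differences passed in all 15 alternatives, with values of -1.41 to -0.86, -0.66 to -0.56 and -0.77 to -0.39. That of GCLM missed the threshold in 6 (without T47D shCtrl replicate 2, either T47D shXBP1 array, either MDA-MB-231 shCtrl array or MDA-MB-231 shXBP1 replicate 2, with values of 0.43 to 0.59) and turned to -0.10 with the mean over probe sets. This comparison shares its arrays with the 2 knockdown comparisons.

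Between control cells of the lines, 7 of the 10 genes differed, in a comparison where 49.0% of all genes did (23.7% higher and 25.2% lower). In MDA-MB-231 shCtrl cells GPX1 averaged 13.32 ± 0.03 against 4.57 ± 0.61 in T47D shCtrl cells (SD, n = 2 each), 8.75 higher (SE 0.23, limma adjusted p = 7.25e-08). A fold against so dim a level is compressed by RMA. GCLM averaged 11.26 ± 0.06 in MDA-MB-231 and 10.08 ± 0.17 in T47D, 1.19 higher (SE 0.11, adjusted p = 4.16e-05), and KEAP1 was 0.58 higher (SE 0.10, adjusted p = 0.00125). GCLC averaged 10.62 ± 0.01 in MDA-MB-231 and 11.57 ± 0.07 in T47D, a difference of -0.95 (SE 0.09, adjusted p = 3.89e-05). OSGIN1 differed by -0.86 (adjusted p = 0.000607), SRXN1 by -0.33 (adjusted p = 0.0153) and NQO1 by -0.29 (adjusted p = 0.0277). The subunits of glutamate-cysteine ligase thus ran opposite ways between the lines, each at its brightest probe set. NFE2L2 (0.21, adjusted p = 0.0865), TXNRD1 (-0.17, adjusted p = 0.151) and HMOX1 (0.29, adjusted p = 0.457) did not pass. The NQO1 call was lost without any 1 of T47D shCtrl replicates 1 and 2 (adjusted p = 0.0765 and 0.110), T47D shXBP1 replicates 1 and 2 (0.0513 each) or MDA-MB-231 shCtrl replicate 1 (0.144). The SRXN1 call was lost without T47D shCtrl replicate 2 (0.0857) or MDA-MB-231 shCtrl replicate 2 (0.0880).

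The other genes of the pathway were taken as 8 lists with 101 measured genes. In MDA-MB-231, 15 of the 101 rose and 8 fell, 22.8% in all, against 17.2% of all genes (10.6% higher and 6.68% lower). In T47D, 18 rose and 29 fell, 46.5% in all, against 29.1% of all genes (15.5% higher and 13.5% lower). These shares of all genes are also the background of the count in each list. The median log2 fold change was 0.09 in MDA-MB-231 and -0.08 in T47D, and over all genes it was 0.03 and -0.02.

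**Figure D4:**
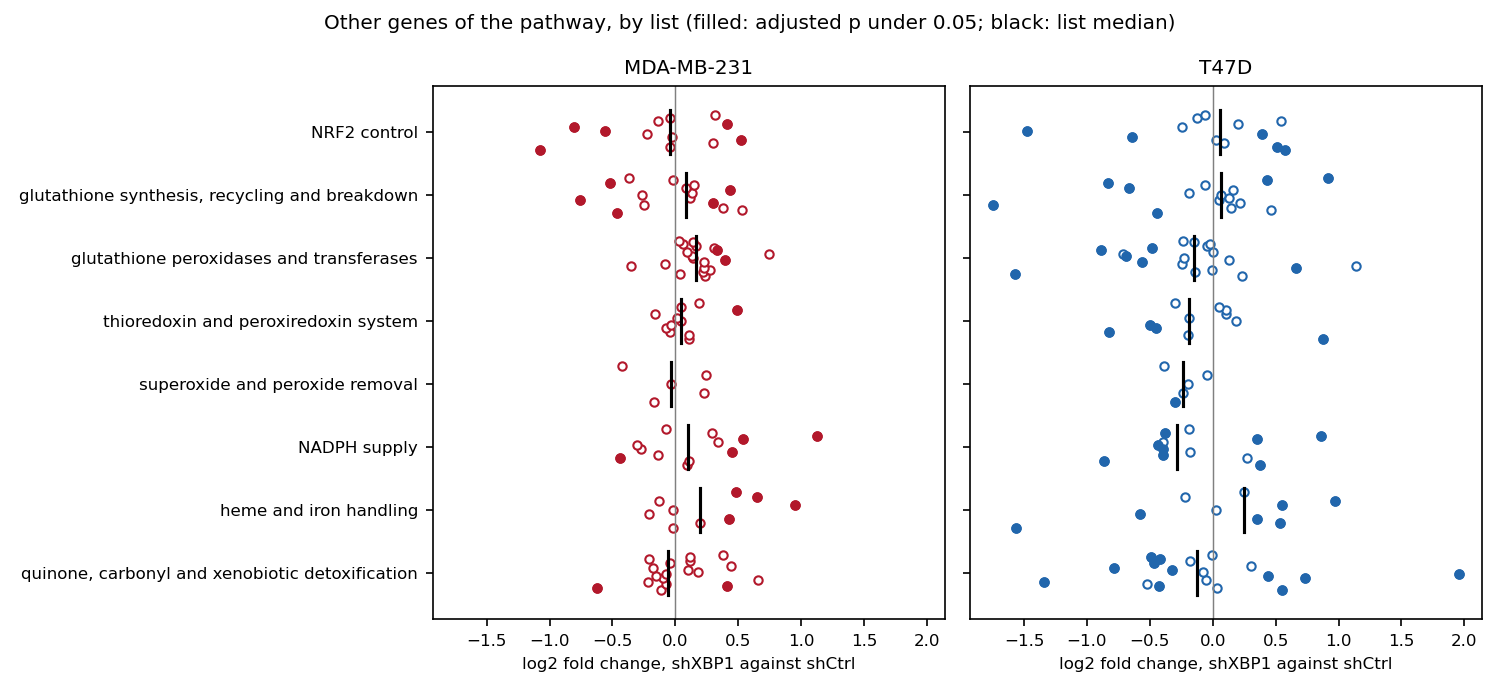
Log2 fold change of shXBP1 against shCtrl for the other genes of the pathway in MDA-MB-231 (left) and T47D (right), 1 point per gene at its brightest probe set, grouped by list. Filled points passed the adjusted p threshold of 0.05 and black bars are list medians, which run from -0.06 to 0.20 in MDA-MB-231 and from -0.29 to 0.25 in T47D.

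Of 12 genes that control NRF2, 2 rose and 3 fell in MDA-MB-231, and 3 rose and 2 fell in T47D. BACH1, the repressor that competes with NRF2, moved in opposite directions, as NFE2L2 did. It read 9.71 and 9.92 in MDA-MB-231 shXBP1 cells against 10.99 and 10.79 in shCtrl cells (-1.08, SE 0.12, limma adjusted p = 0.000965), and 10.63 and 10.62 in T47D shXBP1 cells against 9.97 and 10.13 in shCtrl cells (0.58, SE 0.12, adjusted p = 0.00709). The difference was -1.65 (SE 0.16, adjusted p = 0.000505). The small MAF gene MAFF, whose product pairs with NRF2 and BACH1, fell by 0.56 in MDA-MB-231 and by 1.48 in T47D, and MAFG fell by 0.80 in MDA-MB-231. CUL3, the scaffold of the ligase that KEAP1 serves, rose by 0.52 in MDA-MB-231 at its brightest probe set, which changed by 0.03 in T47D (adjusted p = 0.887). Its second probe set rose by 0.67 in T47D and read 0.25 in MDA-MB-231 (adjusted p = 0.411 over probe sets), so neither passed in both lines. In T47D BACH2 rose by 0.51 and DPP3, which binds KEAP1, fell by 0.64.

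Of 15 genes of glutathione synthesis, recycling and breakdown, 2 rose and 3 fell in MDA-MB-231, and 2 rose and 4 fell in T47D. SLC7A11, the cystine importer, rose by 0.92 in T47D (SE 0.11, limma adjusted p = 0.000657) and had a value of -0.37 in MDA-MB-231 (adjusted p = 0.0610), a difference of -1.29 (adjusted p = 0.00113). Its second probe set agreed in T47D (0.92) and fell by 0.57 in MDA-MB-231, and the third fell by 1.29 in MDA-MB-231 and read -0.25 in T47D. CTH, which makes cysteine from cystathionine, fell by 1.75 in T47D (SE 0.14) and GSR, glutathione reductase, by 0.66, while OPLAH fell by 0.83. In MDA-MB-231 GGT1 fell by 0.76, from a level near the median of all probe sets, OPLAH by 0.52 and CBS, the enzyme before CTH, by 0.46 (by 0.45 in T47D), and GLRX5 rose by 0.43. OPLAH lay at an adjusted p of 0.0496 in MDA-MB-231.

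Among 19 glutathione peroxidases and transferases, 2 rose and 17 did not pass in MDA-MB-231, and 1 rose and 5 fell in T47D. GPX3, the secreted peroxidase, read 7.73 and 7.82 in T47D shXBP1 cells against 9.21 and 9.49 in shCtrl cells, a fall of 1.57 (SE 0.19, limma adjusted p = 0.000704), and was 5.18 to 5.80 on all MDA-MB-231 arrays. GSTT2 fell by 0.89 and GSTO1 fell by 0.69 in T47D, and GPX8 rose by 0.66. A dimmer GPX8 probe set did not follow, at -0.21 in T47D (limma adjusted p = 0.348 over probe sets). It rose by 0.875 in MDA-MB-231 (adjusted p = 0.00409), where the brightest gave 0.23 (adjusted p = 0.128 over genes). In MDA-MB-231 GSTM3 rose by 0.39 and GSTT2 by 0.33. The GSTM3 value in T47D was 0.13 (limma adjusted p = 0.326). A dimmer GSTM3 probe set rose in both lines. It gave 0.79 in MDA-MB-231 (limma adjusted p = 0.0111 over probe sets) and 1.01 in T47D (adjusted p = 0.00209). GSTT2 has a near-identical copy in the genome, so its probe set may read both.

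In the thioredoxin and peroxiredoxin list 1 of 11 rose and 10 did not pass in MDA-MB-231, and 1 rose and 3 fell in T47D. The peroxiredoxin genes PRDX2, PRDX3 and PRDX4 fell in T47D by 0.82, 0.45 and 0.50, and nucleoredoxin, NXN, rose by 0.87. PRDX6 did not pass there at its brightest probe set (0.19, limma adjusted p = 0.169). Its second probe set changed by -0.72 in T47D (adjusted p = 0.000857 over probe sets). TXNIP, the inhibitor of thioredoxin, rose by 0.49 in MDA-MB-231, with a value of 0.11 in T47D (limma adjusted p = 0.597). Its second probe set rose in both lines, by 1.16 in MDA-MB-231 and by 1.58 in T47D. The third passed in neither, at 0.15 in MDA-MB-231 and 0.06 in T47D (adjusted p = 0.696 and 0.873 over probe sets). Of 5 genes that remove superoxide and peroxide, catalase, CAT, fell by 0.30 in T47D, and in MDA-MB-231 limma called 0 of the 5, with CCS, the copper chaperone of SOD1, at 0.23 (adjusted p = 0.125) the 1 gene at an unadjusted p under 0.05.

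Of 12 genes of NADPH supply, 3 rose and 1 fell in MDA-MB-231 (17.2% of all genes passed), and 3 rose and 5 fell in T47D (29.1% of all genes passed). RPIA, ribose-5-phosphate isomerase of the pentose phosphate pathway, rose in both lines, by 1.12 in MDA-MB-231 (SE 0.11, limma adjusted p = 0.000708) and by 0.86 in T47D (adjusted p = 0.000902). RPE of the same pathway also rose in both, by 0.54 in MDA-MB-231 and by 0.35 in T47D (limma adjusted p = 0.00590 and 0.0199). In MDA-MB-231 MTHFD2, the mitochondrial folate enzyme, rose by 0.45, and malic enzyme 1, ME1, fell by 0.44. In T47D the mitochondrial isocitrate dehydrogenase gene IDH2 fell by 0.87, NNT by 0.44 and MTHFD1 by 0.40. ME1 separated the lines as GPX1 did, at 11.17 and 11.37 in MDA-MB-231 shCtrl cells against 4.04 and 4.19 in T47D shCtrl cells.

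Of 9 genes of heme and iron handling, 4 rose and 5 did not pass in MDA-MB-231, and 4 rose and 2 fell in T47D. Besides HMOX2, the heme transporter gene SLC48A1 rose by 0.65 in MDA-MB-231. The transferrin receptor gene TFRC rose in that line by 0.48, although 2 dimmer TFRC probe sets fell, by 0.54 and 1.05. BLVRB, a biliverdin reductase, rose by 0.43 in MDA-MB-231 and by 0.35 in T47D (limma adjusted p = 0.0246 and 0.0324). In T47D SLC40A1, ferroportin, the exporter of iron, rose by 0.97 (SE 0.10), ABCB6 fell by 1.56 (SE 0.14) and ferrochelatase, FECH, the last enzyme of heme synthesis, by 0.58. SLC40A1 was 12.58 and 12.38 in T47D shCtrl cells, and all MDA-MB-231 arrays read 3.88 to 4.12. Dimmer probe sets of SLC40A1 and ABCB6 did not follow in T47D, at -0.61 and 0.16.

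Of 18 genes of quinone, carbonyl and xenobiotic detoxification, 1 rose and 1 fell in MDA-MB-231, a share below the 17.2% of all genes, and 4 rose and 7 fell in T47D, where 29.1% of all genes passed. AKR1C3, an aldo-keto reductase of steroids and prostaglandins, read 6.20 and 6.22 in T47D shXBP1 cells against 4.25 and 4.27 in shCtrl cells, a rise of 1.96 (SE 0.09, limma adjusted p = 1.53e-05), and was 3.96 to 4.11 on the MDA-MB-231 arrays. The T47D shCtrl level lay under the median of all probe sets and near that of MDA-MB-231, so it is not shown to be above background and the size of the rise is uncertain. AKR1C1 rose by 0.73 in T47D (adjusted p = 0.0486), and since the AKR1C genes are close paralogs their probe sets may share signal. The efflux pump gene ABCG2 fell by 1.34, to 4.73 and 5.04 in T47D shXBP1 cells against 6.58 and 5.88 in shCtrl cells. The T47D shXBP1 arrays and shCtrl replicate 2 lay under that median, so the size of this fall is uncertain too. Carbonyl reductase 1, CBR1, fell by 0.78. In MDA-MB-231 the export pump genes ABCC2 and ABCC3 changed by -0.62 and 0.41. ABCC3 went the other way in T47D, with a change of -0.43 (limma adjusted p = 0.0191). The difference between the lines was 0.84 (adjusted p = 0.00599).

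The genes most like 4 of the antioxidant genes over the 8 arrays were found by Pearson's r among those whose group means spanned at least 1 on the log2 scale. They describe these arrays, in which line and hairpin set most of the variation, and carry no p. HMOX1 was closest to GEMIN6 (r = 0.941), HMOX2 (0.938) and ARHGEF28 (0.935). NQO1 was closest to AASDH (0.989), MALSU1 (0.982) and PWWP2A (0.969), all lower with shXBP1 in both lines. GCLM was closest to TGFBR1 (0.997), PVR (0.997) and CTSZ (0.997), and TXNRD1 to RSBN1L (0.991), ATAD1 (0.990) and THAP12 (0.988).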

How the data were processed

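The deposited file holds log2 values for 54675 probe sets on 8 arrays, which the authors computed with RMA in the affy package, version 1.30.0, per the submitters' processing notes. RMA subtracts background, normalizes by quantiles and summarises the probes of a set. The sources used here do not say whether all arrays went through it jointly, and the table has no detection calls. Values ran from 2.75 to 15.6, with array medians of 5.87 to 5.91, and were used as deposited. Replicates correlated at 0.996 to 0.998 over genes.

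Probe sets were named through the platform annotation supplied for the array: 41091 carried 1 symbol, 1801 carried several and were not used, and 11721 were unnamed here. Each gene was read at its brightest single-symbol probe set (19775 genes). Groups and replicate numbers came from the labels. limma 3.58.1 in R 4.3.3 (lmFit, eBayes) fitted 4 group means with 1 spread per gene, which leaves 4 residual degrees of freedom, and p-values were two-sided and adjusted by Benjamini-Hochberg over all genes at a threshold of 0.05. With 2 arrays a side, the smallest p of an exact permutation test is 0.333. Probe set values came from the same fit over 41091 probe sets. Precision is limited by the few arrays: the median SE of a knockdown fold change was 0.119.

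The genes and lists were chosen with earlier results of these data known. Of each list, up to 4 called genes with the largest fold change per knockdown comparison were named, and up to 2 for the other comparisons, of which a part is given. Of 109 list genes, 8 are not analysed here. The alternatives were the mean over probe sets, each probe set on its own, filters on dim genes, a second quantile normalization, trend and robust fitting, the replicate block, the arrays of 1 line alone and leaving out each array.

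Replicate numbers were checked for pairing: the differences between replicates 1 and 2 correlated across groups at -0.069 to 0.038 over genes, so the numbers were not treated as pairs.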

Additional observations from a re-analysis of the deposited data

Results flagged for a closer look

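The knockdown effects of 4 antioxidant genes differed between the lines by limma's test of the difference. NFE2L2 had a difference of -1.34 for MDA-MB-231 minus T47D (-0.35 and 0.99). TXNRD1 had a difference of -0.70 (-0.55 and 0.15). GCLC had a difference of -0.61 (-0.52 and 0.09). GCLM had a difference of 0.55 (-0.03 and -0.57), which did not hold with the mean over its probe sets. With 2 arrays per group no single array was tested as an outlier.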

How the results depend on the processing

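In MDA-MB-231 the number of changed genes, 3410 with all 8 arrays in the fit, was 1897 with only the 4 arrays of the line, and 2063 to 2931 when 1 array was left out, with 2063 without shCtrl replicate 1 and 2152 without shXBP1 replicate 1. The number of antioxidant genes called there, 5, was 3 with only those 4 arrays and 3 to 5 when 1 array was left out (3 without shCtrl replicate 1 or 2), the calls lost being NFE2L2 and HMOX1. The counts of the other 3 comparisons stayed within 1.5 times under every alternative run. The replicate block gave 5421 changed genes in T47D, 2941 in MDA-MB-231, 4466 for the difference and 9472 between control cells, and among the antioxidant genes it ended the NFE2L2 call in MDA-MB-231 (adjusted p = 0.0556). Signs turned only for values that had not passed, except GCLM's difference between the lines, which was -0.105 with the mean over probe sets. The others were NQO1's difference (0.032 with the mean over probe sets, and -0.124 to 0.014 when 1 array was left out), GPX1 in T47D (-0.695 to 0.163 when 1 array was left out) and GCLM in MDA-MB-231 (-0.101 to 0.050). The causes were not tested. GCLC in T47D passed with the mean over probe sets (0.28, adjusted p = 0.0346), and TXNRD1 in T47D with trend and robust fitting (adjusted p = 0.0410). Dim probe sets limit GPX1 in T47D and the third probe sets of NFE2L2, GCLC and GCLM.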
